A study of Mus musculus with 6 samples.

Results

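The ATF4 stress programme and the enzymes of serine and asparagine synthesis were described in epididymal white adipose tissue (eWAT) through 10 genes: Atf4, Atf5, Ddit3, Chac1, Trib3, Sesn2, Asns, Phgdh, Psat1 and Mthfd2. They were taken by gene name from the 55039 genes of the count and FPKM tables, and 11 rows matched, because Ddit3 is listed as 2 genes. The second of these, with a listed length of 105 bases inside the first, held 0 reads. The other 10 rows passed the filter on low counts, each with reads in every library. The genes were chosen by their role together with their levels in these same tumor-bearing and control libraries, so the comparison of the groups is given for them as a description, without a test.

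The samples were eWAT of male C57BL/6 mice that were 6 to 7 weeks old when the model was set up. Of these, 3 mice received Lewis lung carcinoma (LLC) cells, a mouse lung tumor line, under the skin near the ilium (CAC), and 3 received phosphate-buffered saline (CONT). Tissue was taken 28 days after the injection and 1 mRNA library was made per mouse, so n = 3 in each group. Tumor and wasting go together in this model, and a tumor-bearing group without wasting was not analysed here.

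Cells slow the start of translation when amino acids run short, when unfolded proteins build up in the endoplasmic reticulum, when mitochondria are damaged or when heme is lacking. Separate kinases sense these states, and all of them phosphorylate the initiation factor eIF2. Most mRNAs are then translated less, while that of Atf4, through its upstream open reading frames, is translated more, so the mRNA level of Atf4 is only part of its activity. The ATF4 protein joins C/EBP partners at composite elements and switches on enzymes that make serine and asparagine, amino acid transporters, tRNA synthetases and its own inhibitors. In fat, this programme has been tied to amino acid supply, to mitochondrial stress and to the control of mTORC1.

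The libraries held from 15713794 to 25926425 counts, and 1 CPM (the count scaled to its library total after TMM normalization) stood for 11.2 to 26.5 reads. CONT replicate 1 stood apart: genes of the mitochondrial genome took 30.2% of its counts (95% Wilson interval 30.1 to 30.2%, counting error only) and 3.89% to 5.04% in the other libraries. CONT replicates 3 and 1 held RNA of the epididymis. CONT replicate 3 had 118445 reads of Gpx5, a secreted epididymal peroxidase, where the other libraries had 0 to 9. CONT replicate 1 had 786 reads of Lcn5, 767 of Crisp1, 702 of Adam7 and 243 of Spint4, of 7 epididymal markers, and the CAC libraries had 0 to 2 reads of these 4. The summed FPKM of the 7 markers was 1.07 to 4300 in CONT, highest in CONT replicate 3, and 0.059 to 0.498 in CAC. The adipocyte markers Adipoq and Plin1 were present in each library, at 994 to 2010 and 136 to 395 FPKM. The summed FPKM of 9 adipocyte markers was 9860 to 24700 in CONT and 21400 to 23900 in CAC, and for 0 of the 9 did the groups separate. Cfd made up most of the sums in CAC. CAC replicates 2 and 3 differed from CAC replicate 1. Lep, the hormone leptin, was at 0.967 and 0.101 FPKM in them, at 126 FPKM in CAC replicate 1 and at 169, 97.3 and 99.1 FPKM in CONT. Fabp4 was at 584 and 681 FPKM in them, at 2540 FPKM in CAC replicate 1 and at 4060, 1100 and 1300 FPKM in CONT. All 5 neutrophil markers were higher in every CAC library than in every CONT library, with sums of 183 to 1400 FPKM in CAC and 3.86 to 62.1 in CONT. Ly6g, which defines neutrophils, was at 0 in CONT replicate 1. Of 6 B and plasma cell markers, 5 were lower in every CAC library, and the sums were 3.22 to 7.26 against 14.4 to 33.7 FPKM. Of 6 fibroblast and matrix markers, 4 were lower and 1 higher in every CAC library (178 to 260 against 246 to 291 FPKM). In 4 further lists, 1 of 6 macrophage, 1 of 5 T cell, 1 of 5 mesothelium and 0 of 5 endothelium markers were higher in every CAC library and 0 lower, where 11.8% of all genes were higher and 10.7% lower. The part of these cells in the results below was not tested. In whole tissue, fewer cells of a type and less RNA per cell cannot be told apart.

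The 10 genes did not share a direction. In CAC, Chac1, Asns, Sesn2 and Psat1 were higher, and each of these 4 had every CAC library above every CONT library. Atf4 itself, Atf5, Ddit3 and Mthfd2 were not higher, and their highest library was CONT replicate 1 in all 4 cases. Phgdh ranged widely among the CAC mice, and Trib3 exceeded all CONT mice in 2 of the 3 CAC mice. Of the 10 genes, 5 had a log2 fold change above 0 and 5 below, from -1.12 to 2.64, with a median of 0.02, beside a median of -0.06 over the 17296 genes tested. Separation upwards was seen in 11.8% of all genes tested and separation downwards, which 0 of the 10 showed, in 10.7%. With upper-quartile scaling Ddit3 and Mthfd2 separated downwards, and Ddit3 did so where 10 counts were required in every library. These shares are given as background only, since the genes were chosen on this contrast. In edgeR with its quasi-likelihood model, 0% of all genes had an adjusted p under 0.05 and 13.3% (2294 genes) had an unadjusted p under 0.05. DESeq2 called 930 genes at an adjusted p under 0.05, voom with sample quality weights called 953, and limma on FPKM called 5 or 6 with either pseudocount.

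**Figure D1:**
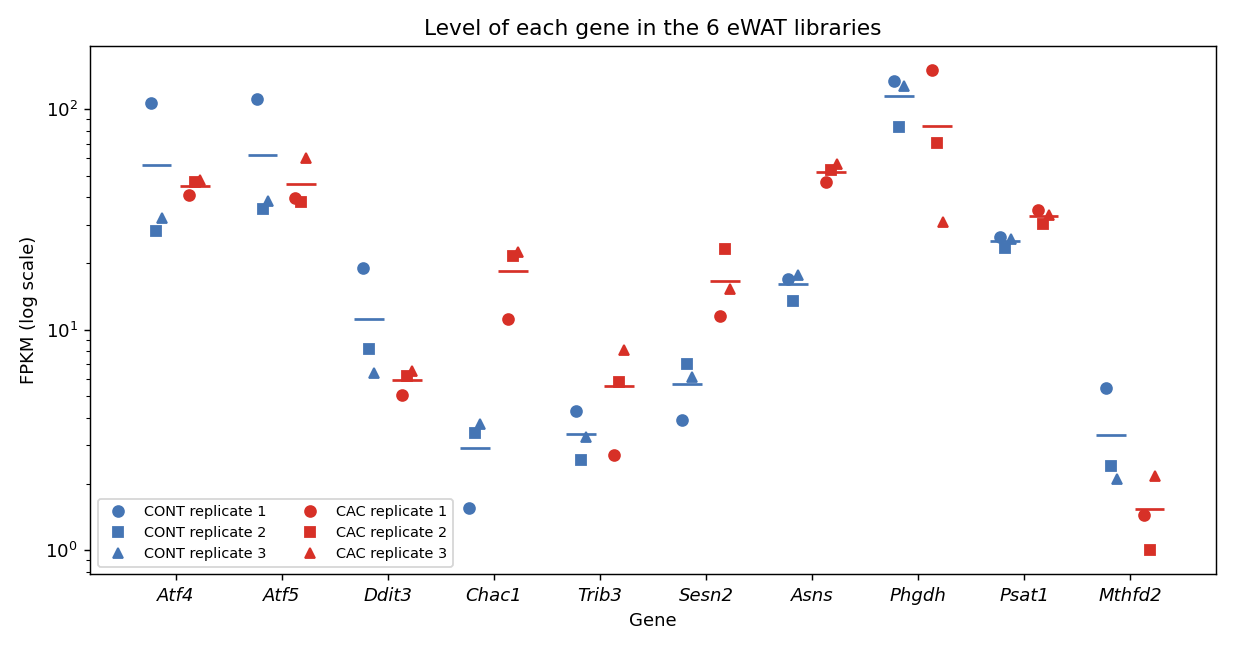
FPKM of each gene on a log axis, 1 point per library, with CONT in blue and CAC in red, and a horizontal line at the mean of each group. Asns, Chac1, Sesn2 and Psat1 have all CAC points above all CONT points, while CONT replicate 1 (blue circle) is the highest point of Atf4, at 107 FPKM, and of Ddit3, at 19.0 FPKM.

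Promoter sequence was available for all 10 genes as 12 windows of 300 bases from the RefSeq annotation of GRCm38.p6, each with 250 bases before and 50 bases after a start of transcription. They were searched on both strands for TGATGNAA, the core of the composite C/EBP-ATF element through which ATF4 acts. The motif was found in the windows of 3 of the 10 genes, Asns, Chac1 and Trib3, and in 3.97% of all 32851 windows of this length. The narrower spelling TGATGCAA was found only for Chac1 among the 10, and in 0.895% of all windows. A match is a match of letters, and elements outside these windows were not looked for. The windows of the 3 genes are printed with the matching bases in capitals, together with that of Sesn2, which had 0 matches. The CAC and CONT libraries separated for Asns, Chac1 and Sesn2 and overlapped for Trib3, and Psat1, which separated too, had 0 matches in both of its windows. That of Asns is chr6:7693160-7693459 on the minus strand, that of Chac1 chr2:119350992-119351291 on the plus strand, that of Trib3 chr2:152344011-152344310 on the minus strand and that of Sesn2 chr4:132510407-132510706 on the minus strand, each read 5′ to 3′ along the gene.
Asns: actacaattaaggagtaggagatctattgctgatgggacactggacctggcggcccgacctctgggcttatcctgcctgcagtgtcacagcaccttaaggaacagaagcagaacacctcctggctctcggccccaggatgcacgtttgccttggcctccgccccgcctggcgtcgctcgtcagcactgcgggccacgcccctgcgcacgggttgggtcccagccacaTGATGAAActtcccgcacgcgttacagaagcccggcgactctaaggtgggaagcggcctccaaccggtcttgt
Chac1: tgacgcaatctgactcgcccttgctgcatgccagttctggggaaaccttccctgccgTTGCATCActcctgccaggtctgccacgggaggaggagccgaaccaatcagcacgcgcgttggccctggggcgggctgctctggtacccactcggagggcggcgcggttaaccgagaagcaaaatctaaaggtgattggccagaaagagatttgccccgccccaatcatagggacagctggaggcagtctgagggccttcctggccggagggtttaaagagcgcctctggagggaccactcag
Trib3: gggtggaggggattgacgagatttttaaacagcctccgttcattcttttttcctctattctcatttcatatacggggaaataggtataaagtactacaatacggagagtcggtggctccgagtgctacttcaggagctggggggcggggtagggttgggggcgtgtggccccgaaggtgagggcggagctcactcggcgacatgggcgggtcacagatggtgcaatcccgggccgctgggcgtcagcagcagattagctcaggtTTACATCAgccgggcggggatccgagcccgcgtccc
Sesn2: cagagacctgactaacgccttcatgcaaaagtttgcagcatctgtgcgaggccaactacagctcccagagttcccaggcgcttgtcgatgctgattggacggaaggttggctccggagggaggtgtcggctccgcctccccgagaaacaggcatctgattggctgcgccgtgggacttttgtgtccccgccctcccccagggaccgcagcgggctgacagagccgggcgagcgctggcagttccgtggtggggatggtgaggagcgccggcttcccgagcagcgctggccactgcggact

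In Asns the match begins 23 bases before the start and lies on the strand of the gene. In Chac1 it lies on the opposite strand, and its leftmost base is 193 bases before the start. The match of Trib3 is also on the opposite strand, from base 15 after the start, and so in the transcribed part of the RefSeq model. No match was found in either window of Atf5, or in those of Atf4, Ddit3, Phgdh and Mthfd2.

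The transcription factors come first. Atf4 (ENSMUSG00000042406, chr15:80255184-80257541, plus strand, GRCm38) encodes the bZIP factor at the centre of the pathway. Its level was 107, 28.1 and 32.1 FPKM in CONT replicates 1, 2 and 3 and 40.8, 46.7 and 47.7 FPKM in the CAC replicates. The CAC mice lay close together, above CONT replicates 2 and 3 and far below CONT replicate 1. On the count scale the log2 fold change was -0.32 (SE 0.52). Without CONT replicate 1 its sign turned, to 0.57 (SE 0.15), and every CAC library was then above both remaining CONT libraries. Without CONT replicate 3 it was -0.59 (SE 0.56).

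Atf5 (ENSMUSG00000038539, chr7:44812256-44816658, minus strand) encodes a related factor that is under the same kind of translational control and has been linked to mitochondrial stress. It stood at 112, 35.5 and 38.6 FPKM in CONT and at 39.7, 38.2 and 60.0 FPKM in CAC. Apart from CONT replicate 1, only CAC replicate 3 exceeded 40 FPKM, and the groups overlapped. The log2 fold change was -0.45 (SE 0.49), and 0.30 (SE 0.25) without CONT replicate 1. Atf5 overlaps Nup62 on the opposite strand by 571 bases, with 4817 reads for Nup62 and 15784 for Atf5 over the 6 libraries, and the strand setting of the counting is not given in the sources used here.

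Ddit3 (ENSMUSG00000025408, chr10:127290774-127296288, plus strand) encodes CHOP, the factor that ATF4 induces when stress persists and that drives cell death genes. Its level was 19.0, 8.16 and 6.38 FPKM in CONT and 5.08, 6.16 and 6.48 FPKM in CAC. CONT replicate 1 was again the highest library, and CAC replicate 3 was level with CONT replicate 3, so the groups touched. The log2 fold change was -0.94 (SE 0.43), and -0.31 (SE 0.21) without CONT replicate 1. Ddit3 overlaps the tail of Mars on the opposite strand by 68 bases.

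The effectors of the programme come next. Chac1 (ENSMUSG00000027313, chr2:119351229-119354381, plus strand) encodes a gamma-glutamyl cyclotransferase that breaks down glutathione, and its mRNA is widely read as a sign of ATF4 activity. It stood at 1.55, 3.42 and 3.72 FPKM in CONT, from 35, 160 and 168 reads. In CAC it stood at 11.2, 21.7 and 22.6 FPKM, from 543, 1083 and 1203 reads. Even the lowest CAC mouse was well above the highest CONT mouse. The mean was 2.90 ± 1.18 FPKM (SD, n = 3) in CONT and 18.5 ± 6.32 FPKM in CAC, and the log2 fold change was 2.64 (SE 0.45), or 6.25-fold. It was 2.36 (SE 0.38) without CONT replicate 1, the library in which Chac1 was lowest.

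Sesn2 (ENSMUSG00000028893, chr4:132492032-132510501, minus strand) encodes sestrin 2, a leucine sensor that restrains mTORC1. Its level was 3.89, 6.99 and 6.12 FPKM in CONT and 11.6, 23.3 and 15.3 FPKM in CAC. All CAC mice were above all CONT mice, with CAC replicate 2 the highest. The log2 fold change was 1.54 (SE 0.35), or 2.90-fold, and 1.34 (SE 0.34) without CONT replicate 1. Its relatives Sesn1 and Sesn3 are treated with the other outputs of the pathway.

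Trib3 (ENSMUSG00000032715, chr2:152337422-152344032, minus strand) encodes a pseudokinase that ATF4 and CHOP induce and that in turn dampens ATF4. It stood at 4.29, 2.57 and 3.25 FPKM in CONT and at 2.71, 5.81 and 8.14 FPKM in CAC. CAC replicates 2 and 3 were above all CONT mice, while CAC replicate 1 lay within the CONT range. The log2 fold change of 0.71 (SE 0.45) moved with single CAC mice, to 1.07 (SE 0.36) without CAC replicate 1 and to 0.33 (SE 0.46) without CAC replicate 3.

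Among the enzymes, Asns (ENSMUSG00000029752, chr6:7675169-7693254, minus strand) encodes asparagine synthetase, which makes asparagine from aspartate and glutamine. Its level was 17.0, 13.5 and 17.7 FPKM in CONT and 46.7, 53.0 and 56.3 FPKM in CAC. The spread within each group was small beside the gap between them, with 16.1 ± 2.26 FPKM (SD, n = 3) in CONT and 52.0 ± 4.89 FPKM in CAC. The log2 fold change was 1.68 (SE 0.20), or 3.19-fold, and stayed between 1.57 and 1.80 over the 17 alternatives. CONT replicate 1, which was far from the other CONT libraries for Atf4, was 1.08 times their mean in CPM for Asns.

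Serine is made from the glycolytic intermediate 3-phosphoglycerate in steps catalysed by Phgdh, Psat1 and Psph. Phgdh (ENSMUSG00000053398, chr3:98313170-98339990, minus strand), the dehydrogenase of the opening step, was the most abundant of the 10 genes. It stood at 135, 83.0 and 128 FPKM in CONT and at 151, 70.5 and 31.0 FPKM in CAC. The highest and the lowest library were both CAC, and in CPM they differed 4.81-fold, against 1.60-fold within CONT. The log2 fold change of -0.48 (SE 0.55) was -1.16 (SE 0.48) without CAC replicate 1 and -0.08 (SE 0.43) without CAC replicate 3. CAC replicate 1, highest here and lowest of the CAC libraries for Trib3, was the CAC library with Lep and Fabp4 within the CONT range, and the part of this in these values was not tested.

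Psat1 (ENSMUSG00000024640, chr19:15904678-15947337, minus strand), the transaminase of the next step, was steady by comparison. Its level was 26.4, 23.4 and 25.9 FPKM in CONT and 35.0, 30.1 and 33.2 FPKM in CAC. The groups did not overlap, but the difference was small, with a log2 fold change of 0.35 (SE 0.17), or 1.28-fold. In Phgdh and Psat1, neighbours in the same route, the order of the CAC mice differed: CAC replicate 3 was lowest for Phgdh and lay between the other two for Psat1.

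Mthfd2 (ENSMUSG00000005667, chr6:83305691-83325908, minus strand) encodes the mitochondrial folate enzyme that carries the carbon released from serine. Its level was 5.44, 2.41 and 2.10 FPKM in CONT and 1.45, 1.00 and 2.18 FPKM in CAC. CAC replicate 3 lay between CONT replicates 2 and 3, and the groups overlapped. With 107 to 262 reads per library it was among the least counted of the 10 genes, and the log2 fold change was -1.12 (SE 0.48), or -0.56 (SE 0.39) without CONT replicate 1.

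Ordered by their median FPKM over the 6 libraries, the genes ran from Phgdh (105) through Atf4 (43.7), Atf5 (39.1), Asns (32.2), Psat1 (28.3), Sesn2 (9.29), Chac1 (7.47), Ddit3 (6.43) and Trib3 (3.77) to Mthfd2 (2.14). A clear step lay between Psat1 and Sesn2, where the order held in 6 of 6 libraries. All other neighbours traded places in at least 1 library. Phgdh was above Atf4, Sesn2 above Chac1, Ddit3 above Trib3 and Trib3 above Mthfd2 in 5 of 6 libraries, and Atf5 above Asns in 4 of 6. Atf4 was above Atf5 in 2 of 6, and Asns above Psat1 and Chac1 above Ddit3 in 3 of 6 each. In these 2 last pairs the change of order followed the groups: Asns exceeded Psat1, and Chac1 exceeded Ddit3, in the 3 CAC libraries.

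CONT replicate 1 set the direction of Atf4 and Atf5. In CPM it stood at 3.51 times the mean of the other CONT libraries for Atf4, 2.99 times for Atf5, 2.58 times for Ddit3 and 2.38 times for Mthfd2. For Chac1 and Sesn2 it went the other way, at 0.427 and 0.586 times. Without it, 7 of the 10 genes had a log2 fold change above 0, with a median of 0.48 beside -0.03 over all genes. Then 5 genes had every CAC library above both CONT libraries (Atf4, Asns, Chac1, Psat1 and Sesn2), where 18.1% of all genes tested did, and Ddit3 was below, where 19.6% of all genes were. Without CONT replicate 3, the library with the most epididymal RNA, 4 genes were above (15.5% of all genes) and 2, Ddit3 and Mthfd2, below (13.1%). The part of the mitochondrial share of CONT replicate 1, and of the epididymal RNA of CONT replicates 1 and 3, in these values was not tested.

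**Figure D2:**
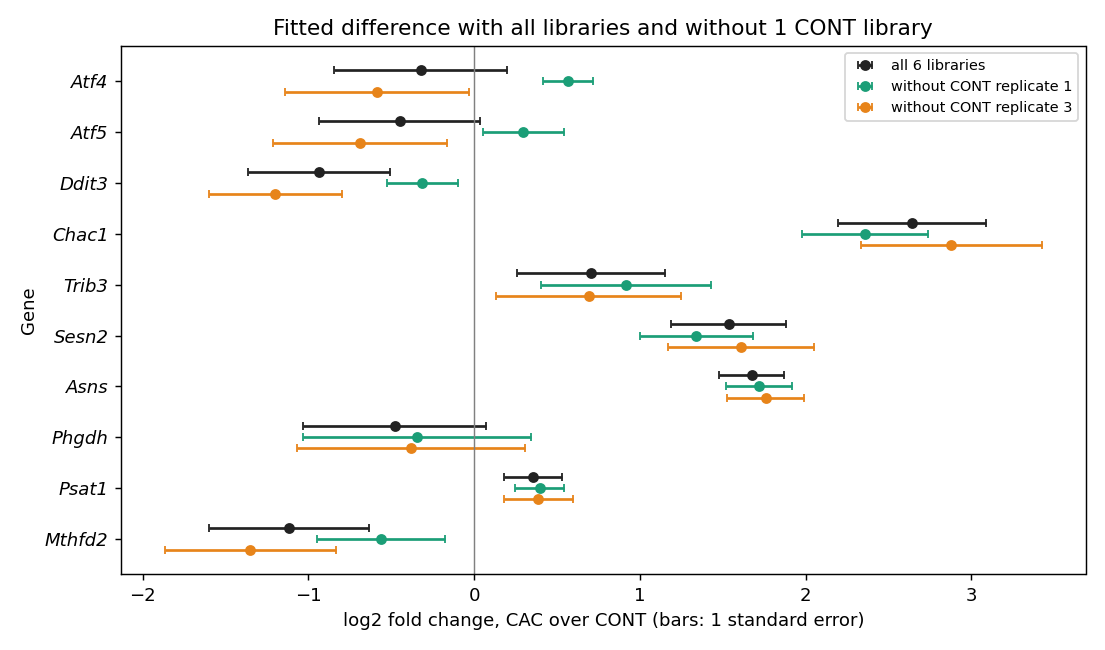
Log2 fold change of CAC over CONT for each gene, with bars of 1 standard error, fitted with all 6 libraries (black), without CONT replicate 1 (green) and without CONT replicate 3 (orange). Asns lies at 1.68, 1.72 and 1.76 in the 3 fits, while Atf4 goes from -0.32 to 0.57 without CONT replicate 1.

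Each gene was also set against Atf4 within its library, a ratio of FPKM values that no scaling between libraries can move. The divisor was high in CONT replicate 1, at 107 FPKM against 28.1 and 32.1 FPKM in CONT replicates 2 and 3. This lowers every ratio of CONT replicate 1. The ratio of Asns to Atf4 was 0.159, 0.480 and 0.550 in CONT and 1.15, 1.14 and 1.18 in CAC. The CAC mice differed little among themselves in this ratio and all lay above 1. For Chac1 the ratio was 0.0144, 0.122 and 0.116 in CONT and 0.275, 0.464 and 0.474 in CAC. For Ddit3 it was 0.177, 0.291 and 0.198 in CONT and 0.125, 0.132 and 0.136 in CAC. Relative to Atf4, 3 of the 9 genes (Asns, Chac1 and Sesn2) were higher in every CAC library, where 3.49% of all genes were, and 2 (Ddit3 and Mthfd2) were lower, where 3.23% were. Since the levels had been known when the genes were chosen, nothing is read from these counts.

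**Figure D3:**
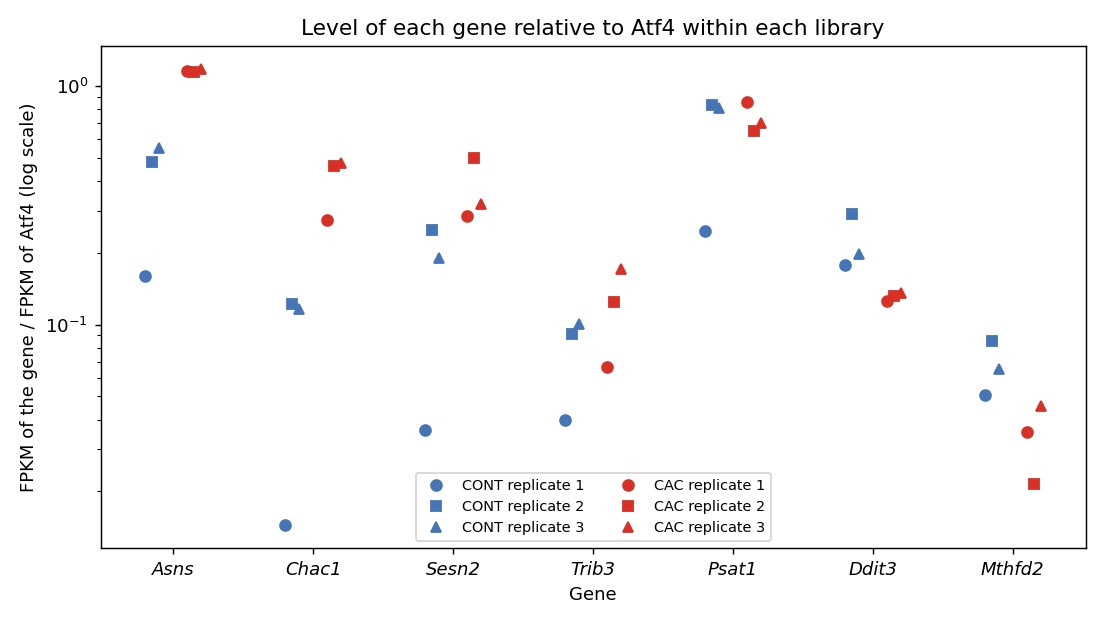
FPKM of 7 genes divided by that of Atf4 in the same library, on a log axis, with CONT in blue and CAC in red. The CAC points of Asns lie together from 1.14 to 1.18, above the CONT points at 0.159 to 0.550, and those of Ddit3 and Mthfd2 lie below all CONT points.

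The wider pathway was described through 11 lists of other genes, 133 in all, of which 131 could be tested. These lists too were drawn up with earlier results of these data known. Their shares beside those of all genes are therefore a description, not independent evidence of a shift. In the edgeR fit 0 of the 131 had an adjusted p under 0.05, while 31 (23.7%) had an unadjusted p under 0.05, 25 of them higher in CAC and 6 lower, against the 13.3% of all genes given above. DESeq2 called 18 higher and 2 lower at an adjusted p under 0.05, which is 15.3% of the 131, against 5.18% of all genes with an adjusted p in that fit. Voom with sample quality weights called 14 and 1, or 11.5%, against 5.51% of all genes. Genes named below that both of these fits called were Ppp1r15b, Cebpd, Aldh1l1, Sfxn1, Gpt2, Glul and Slc43a1. Also called by both were Slc38a2, Ddit4, Bbc3, Map1lc3b, Dnaja3, Hspa9 and Hspd1. DESeq2 but not voom called Eif2s3x, Psph, Slc3a2, Dnajb9 and Xbp1. The median log2 fold change was 0.19 over the 131 genes, beside -0.06 over all genes, and 83 of them were above 0, beside 7943 of all 17296. Without CONT replicate 1, 30 were higher and 6 lower at an unadjusted p under 0.05, beside 15.6% of all genes. Without CONT replicate 3, 23 were higher and 6 lower, beside 9.25% of all genes. In both fits 0 of the 131 had an adjusted p under 0.05.

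**Figure D4:**
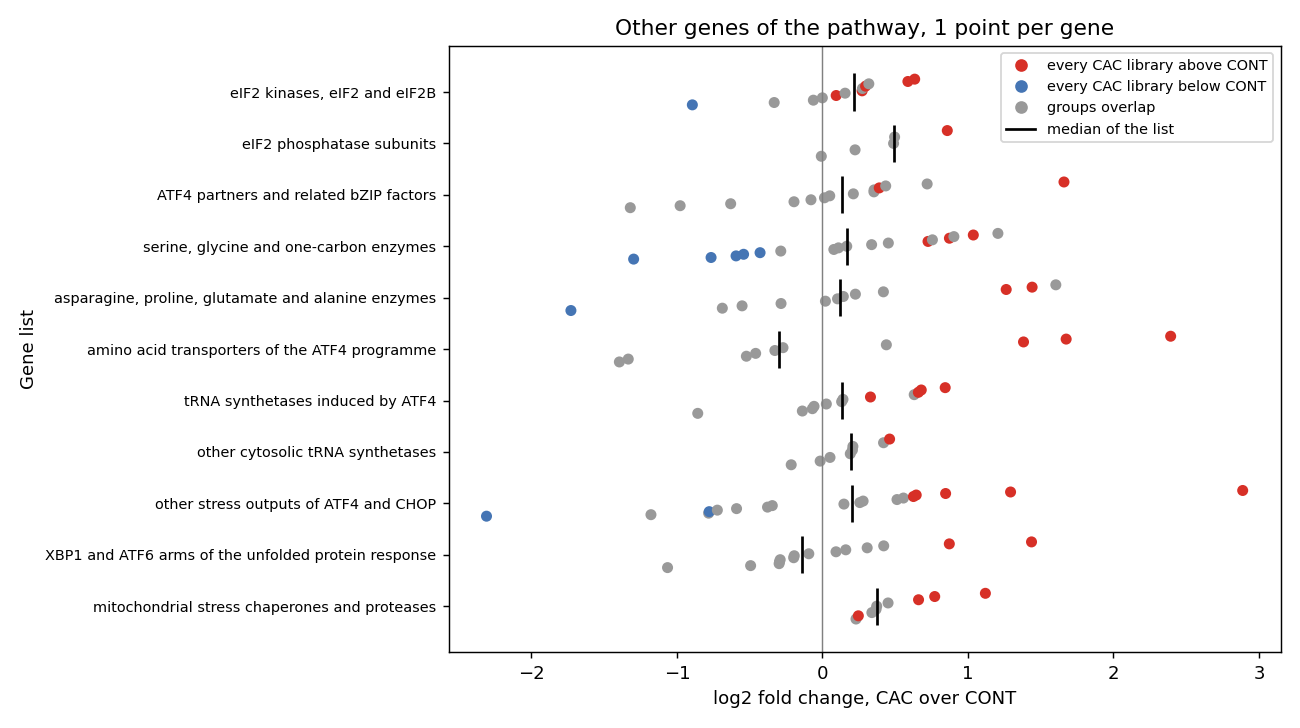
Log2 fold change of CAC over CONT for the 131 other genes tested, 1 point per gene, in 11 lists, with the median of each list as a black bar. Red points have every CAC library above every CONT library, blue points every CAC library below, and grey points overlap. The points furthest out are Ddit4 on the right, at 2.89, and Bbc3 on the left, at -2.31 (-1.68 without CONT replicate 1).

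Upstream, the kinases that phosphorylate eIF2 did not share a direction. Eif2ak1, the heme-regulated kinase, and Eif2ak4 (GCN2), the sensor of amino acid shortage, had log2 fold changes of 0.30 (SE 0.18) and 0.27 (SE 0.19). Eif2ak3 (PERK), the kinase of the endoplasmic reticulum, was at 0.00 (SE 0.39). Eif2ak2 (PKR), which responds to double-stranded RNA, was at 8.27, 7.86 and 4.50 FPKM in CONT and 4.04, 3.95 and 3.27 FPKM in CAC, a log2 fold change of -0.89 (SE 0.27, adjusted p = 0.284 by edgeR). Over the 12 genes of the kinases, eIF2 and its exchange factor eIF2B the median was 0.22. Of these, 5 had every CAC library above and 1 every CAC library below CONT, against 11.8% and 10.7% of all genes. Eif2ak1 and Eif2ak4 were among the 5, but overlapped with upper-quartile scaling. Eif2s3x, the gamma subunit of eIF2, had the smallest p (0.63, SE 0.18, adjusted p = 0.273). Eif2s1, the alpha subunit on which the kinases act, was at 0.59 (SE 0.27, adjusted p = 0.413), with CAC replicate 3 the highest library at 16.3 FPKM. Of the phosphatase subunits that restore eIF2, the stress-induced Ppp1r15a was at 0.49 (SE 0.29) with overlapping groups, and at 0.82 with voom with sample quality weights. Its level was 7.93, 5.06 and 4.5 FPKM in CONT and 6.3, 9.38 and 9.15 FPKM in CAC. Only CONT replicate 1 reached the CAC range. The constitutive Ppp1r15b was at 15.3, 13.7 and 15.6 FPKM in CONT and 26.2, 22.7 and 33.3 FPKM in CAC, a log2 fold change of 0.86 (SE 0.21, adjusted p = 0.242 by edgeR).

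Among 14 partners of ATF4 and related bZIP factors, the median log2 fold change was 0.13 and 1 gene had an unadjusted p under 0.05, against 13.3% of all genes. Without CONT replicate 1 it was 4 genes, against 15.6% of all genes. The gene called with all libraries was Cebpd, a factor of adipogenesis and of glucocorticoid and cytokine responses, with 12.5, 7.22 and 6.50 FPKM in CONT and 28, 25.9 and 30.0 FPKM in CAC. Its log2 fold change was 1.66 (SE 0.28, adjusted p = 0.215 by edgeR). Cebpb and Cebpg, which pair with ATF4, were at 0.35 (SE 0.51; 1.06 without CONT replicate 1) and 0.36 (SE 0.20), and Atf3, a further target of ATF4, at -0.08 (SE 0.38), all with overlapping groups. For Cebpb and Cebpg only CONT replicate 1 reached the CAC range, at 58.6 and 18.5 FPKM. Cebpg separated upwards without a filter and with at least 10 counts in every library. Nfe2l2, the NRF2 factor of the antioxidant response, was at 0.39 (SE 0.18) with every CAC library above CONT.

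The remaining enzymes of serine, glycine and one-carbon metabolism were split: of 17, 3 were higher and 2 lower at an unadjusted p under 0.05, against 13.3% of all genes in either direction. Without CONT replicate 1 these counts were 2 and 1, against 15.6% of all genes. In the fit with all libraries 3 of the 17 had every CAC library above and 5 every CAC library below CONT, against 11.8% and 10.7% of all genes. Psph, the phosphatase that releases serine in the last step, was at 4.93, 2.71 and 2.16 FPKM in CONT and 1.35, 1.18 and 1.51 FPKM in CAC. Its log2 fold change was -1.30 (SE 0.36, adjusted p = 0.273 by edgeR), so within the serine route Psat1 lay above and Psph below 0. Sfxn1, the mitochondrial carrier of serine, was at 0.73 (SE 0.21, adjusted p = 0.275). Aldh1l1, the cytosolic formyltetrahydrofolate dehydrogenase, was at 0.87 (SE 0.20, adjusted p = 0.232), with 34.2, 28.3 and 30.4 FPKM in CONT and 58.9, 50.7 and 62.8 FPKM in CAC. The ATF4 target Shmt2 was at 0.11 (SE 0.27), and Aldh1l2 stood below 0.4 FPKM in each library.

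For the enzymes of asparagine, proline, glutamate and alanine, 12 genes had a median of 0.12. Gpt2, the mitochondrial alanine transaminase, was at 38.1, 32.8 and 43.1 FPKM in CONT and 105, 128 and 80.5 FPKM in CAC, a log2 fold change of 1.44 (SE 0.27, adjusted p = 0.215 by edgeR). Glul, glutamine synthetase, was at 278, 503 and 438 FPKM in CONT and 928, 1140 and 905 FPKM in CAC, a log2 fold change of 1.26 (SE 0.36, adjusted p = 0.275). Its product glutamine is a substrate of Asns. Pycr1, the proline enzyme that ATF4 induces in many cells, stood under 1 FPKM and had a log2 fold change of -1.73 (SE 0.55, adjusted p = 0.291).

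Of the 10 amino acid transporters, 3 had every CAC library above every CONT library and 0 had every CAC library below, against 11.8% and 10.7% of all genes. The median of the 10 was -0.30, but 1.12 without CONT replicate 3 and -0.44 without CONT replicate 1. Slc43a1, a carrier of large neutral amino acids, was at 3.37, 4.43 and 4.88 FPKM in CONT and 11.4, 26.1 and 30.2 FPKM in CAC (log2 fold change 2.39, SE 0.40, adjusted p = 0.215 by edgeR). Slc38a2, a sodium-coupled carrier of small neutral amino acids, was at 5.24, 7.34 and 6.44 FPKM in CONT and 13.8, 24.2 and 23.6 FPKM in CAC (1.68, SE 0.29, adjusted p = 0.215). Slc3a2, the heavy chain shared by several carriers, was at 1.38 (SE 0.43, adjusted p = 0.290). Slc7a11, the cystine carrier, was low, and its highest value, 0.725 FPKM, was in CONT replicate 3. Its log2 fold change of -1.33 (SE 1.25) became 1.62 without that library.

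Of 12 tRNA synthetases known as ATF4 targets, 3 were higher and 0 lower at an unadjusted p under 0.05, against 13.3% of all genes, with a median of 0.14 beside -0.06 over all genes. Of 8 other cytosolic synthetases, 1 was higher and 0 lower, with a median of 0.20. Without CONT replicate 1 the medians of the 2 lists were 0.26 and 0.25, so their order turned. Every CAC library was above CONT for 4 of the 12 and 1 of the 8, where 11.8% of all genes were. It was below for 0 in both lists, where 10.7% of all genes were. The smallest p-values belonged to Iars, for isoleucine (0.84, SE 0.26, adjusted p = 0.284 by edgeR), Eprs, for glutamate and proline (0.68, SE 0.24, adjusted p = 0.330), and Mars, for methionine (0.66, SE 0.27, adjusted p = 0.371). In the second list Dars, for aspartate, was at 0.46 (SE 0.18, adjusted p = 0.345).

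Among the other outputs of ATF4 and CHOP, 18 of 20 genes could be tested, with 5 higher and 2 lower at an unadjusted p under 0.05, against 13.3% of all genes. Without CONT replicate 3 the counts were 3 and 2, against 9.25% of all genes. Ddit4, which encodes REDD1, an inhibitor of mTORC1 that glucocorticoids induce too, was at 26.6, 22.4 and 29.6 FPKM in CONT and 161, 234 and 194 FPKM in CAC. Its log2 fold change of 2.89 (SE 0.25) had the smallest adjusted p of all genes tested, 0.127 by edgeR, a value that 14 genes shared. The adjusted p was 6.14e-26 with DESeq2, 0.0146 with voom with sample quality weights, and 0.0463 and 0.0438 with limma on FPKM at a pseudocount of 1 and of 0.1, and it ran up to 0.592 with edgeR when CAC replicate 2 was left out. Bbc3, the death gene PUMA, was at 20.4, 7.80 and 7.67 FPKM in CONT and 3.01, 2.05 and 2.26 FPKM in CAC (-2.31, SE 0.45, adjusted p = 0.221), and its log2 fold change was -1.68 without CONT replicate 1. Map1lc3b, the LC3B protein of autophagosomes, was at 0.85 (SE 0.27, adjusted p = 0.291), with every CAC library above CONT. Nupr1, a stress-induced chromatin protein, had its highest value in CONT replicate 1, as Atf4 had, with 62.2, 21.0 and 15.6 FPKM in CONT and 11.6, 15.4 and 17.1 FPKM in CAC (-1.18, SE 0.53). Without that library its log2 fold change was -0.33. The stress hormones were near the floor: Gdf15 stood at 0.230 to 0.510 FPKM, and Fgf21, at 0 to 0.457 FPKM, was too low to test. Sesn1, the relative of Sesn2 regulated by p53 and FOXO, was at 0.63 (SE 0.22, adjusted p = 0.316), and Sesn3 at -0.59 (SE 0.35). Sesn1 and Sesn3 were named after their values had been seen, as relatives of Sesn2.

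The other arms of the unfolded protein response gave no common direction. Of 14 genes of the XBP1 and ATF6 arms, 6 were above and 8 below 0, with a median of -0.14. Without CONT replicate 3, 8 were above and 6 below, with a median of 0.30. Xbp1 was at 30.6, 49.5 and 64.5 FPKM in CONT and 80.1, 111 and 207 FPKM in CAC (1.44, SE 0.45, adjusted p = 0.291 by edgeR), and Dnajb9, a chaperone that XBP1 induces, at 0.87 (SE 0.25, adjusted p = 0.275). Of the mitochondrial chaperones and proteases 9 of 9 were above 0, with TMM, RLE and upper-quartile scaling and without CONT replicate 1 or 3, beside 7943 of all 17296 genes above 0 with TMM and all libraries. Their median was 0.37, and 3 genes had an unadjusted p under 0.05, against 13.3% of all genes. Without CONT replicate 1 it was 6 genes, against 15.6% of all genes, and the median was 0.67. Hspa9, the matrix chaperone mortalin, was at 86.2, 66.5 and 73.1 FPKM in CONT and 111, 175 and 211 FPKM in CAC (1.12, SE 0.31, adjusted p = 0.273). Dnaja3 and Hspd1, which fold proteins in the same compartment, were at 0.66 (SE 0.18) and 0.77 (SE 0.23).

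Among the genes whose profile over the 6 libraries was most like the mean of the 10, by root mean square difference of centred log2 CPM, were Mrpl9 (0.0374), Phb2 (0.0376), Mrps31 (0.0498) and Isca1 (0.0560). The mean profile they follow was shallow, from -0.42 in CONT replicate 2 to 0.32 in CAC replicate 3, with CONT replicate 1 at 0.15.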

How the data were processed

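Libraries of mRNA from eWAT of 3 CAC and 3 CONT mice were sequenced. Reads were cleaned by in-house Perl code of the authors, who used HISAT2 2.0.5 with Ensembl release 94 as reference. The submitters' processing notes name featureCounts 1.5.0-p3. The deposited table of counts holds unscaled whole numbers. How the deposited FPKM values were scaled is not given in the sources. The library size behind them, worked back from counts and gene lengths, was 0.879 to 1.44 times the summed counts of the table. Against the TMM-scaled total it was steadier, at 1.21 to 1.25 times.

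Groups and replicates came from the sample labels, 1 mouse per library. The fit used R 4.3.3 and edgeR 4.0.16 (robust quasi-likelihood F-test, TMM, filtering by group, Benjamini-Hochberg adjustment over 17296 genes). The study itself used DESeq2. Alternatives were DESeq2 1.42.0, limma 3.58.1 on log2(FPKM + 1) and log2(FPKM + 0.1) where 3 or more libraries reached 0.5 FPKM, voom with sample quality weights, other scalings and filters, a replicate block, counts without mitochondrial genes, and each library left out. A standard error is the log2 fold change divided by the root of its F statistic. Groups were called separate where every library of one exceeded every library of the other in CPM. The edgeR, DESeq2 and voom fits were also run on simulated counts. A pass mark was set only for edgeR, at a simulated dispersion (variance beyond counting error) of 0.1. The common dispersion of these data was higher, at 0.265. The outcome is not reported here, and nothing is read from it on which fit to prefer.

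The 10 genes and all lists were chosen with earlier results of these data known. Named genes were the 10, a set of regulators and targets, tissue markers, the 5 genes of most similar profile (1 is not reported here) and, per list, up to 3 genes with the smallest unadjusted p among those whose groups were separate. With 3 against 3, an exact permutation test cannot go below 0.1.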

Additional observations from a re-analysis of the deposited data

How the results depend on the processing

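Over 17 alternatives the log2 fold changes of Asns, Chac1, Trib3, Psat1 and Sesn2 each moved by less than their standard error. Those of Atf4, Atf5, Ddit3, Phgdh and Mthfd2 moved further in 8 cases, of which 4 left out CONT replicate 1, 3 used voom with sample quality weights (Atf4 0.52, Atf5 0.11, Ddit3 -0.33) and 1 left out CAC replicate 1. No gene of the whole table had an adjusted p under 0.05 in the edgeR fit, against 930 genes with DESeq2, 953 with voom, 5 and 6 with limma at a pseudocount of 1 and of 0.1 FPKM, and 1 with the replicate block. Genes with an unadjusted p under 0.05 numbered 2294, or 4884 with voom, and with 1 library left out between 1384 (CAC replicate 2) and 3032 (CONT replicate 1). The median of the 10 genes lay between -0.162 (CONT replicate 2 left out) and 0.48 (CONT replicate 1 left out). The number of the 10 genes whose groups did not overlap, 4, was 6 with upper-quartile scaling, 5 with at least 10 counts in every library, and 4 to 6 with 1 library left out. Leaving out CONT replicate 1 or 3 also raised the share over all genes, from 11.8% above and 10.7% below to 18.1% and 19.6% without CONT replicate 1 and to 15.5% and 13.1% without CONT replicate 3. Separation is easier to reach with fewer libraries in a group, so leaving out 1 library by itself tends to raise such shares and counts. They are therefore not like for like with those from all libraries. Any further cause was not tested.

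Directions turned for Atf4 and Atf5 without CONT replicate 1 and with voom, as given above, and for 6 other named genes. Eif2ak3, at 0.00, had a log2 fold change of 0.0166 with RLE scaling, 0.08275 without a filter, 0.03235 with DESeq2, 0.1146 with the replicate block, 0.04562 without mitochondrial genes, and 0.08835 and 0.1418 with limma at a pseudocount of 1 and of 0.1 FPKM. Atf3 was at 0.006202 without a filter. With 1 library left out, Eif2ak3 ran from -0.3173 to 0.3422, Atf3 from -0.23 to 0.1543, Slc7a11 from -1.858 to 1.616, Plin1 from -0.7794 to 0.04046, Cebpb from -0.02743 to 1.063 and Shmt2 from -0.127 to 0.3564. For named genes other than the 10, 35 values passed an adjusted p under 0.05 under an alternative only.

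The paper assigned mice to the groups at random, and the labels name no pairs. Deviations from the group means correlated at 0.31, -0.15 and -0.22 for equal replicate numbers, and CONT replicate 2 was closest to CAC replicate 3. Deviations within a group depend on each other, so these correlations cannot show whether mice were paired. With the replicate block, 1992 genes had an unadjusted p under 0.05. Depth limits Chac1, Mthfd2, Trib3, Sesn2 and Ddit3, which had as few as 35, 107, 126, 187 and 257 reads in a library.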
